A study of Mus musculus with 27 samples.

Results

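The genes described here are 32 that serve protein folding in the endoplasmic reticulum (ER) and the early secretory pathway: 3 chaperones, 6 co-chaperones, 4 protein disulfide isomerases, 2 lectin chaperones, 1 prolyl isomerase, 7 proteins of targeting and translocation, 7 of ER-associated degradation and 2 stress sensors. They were named as a list and found by symbol among the 30735 genes of the expression table, and all 32 were measured and passed the filter on low values in every comparison. Levels are given in TPM (a relative abundance of transcripts that accounts for their length and adds up to the same total in every sample), summed over the transcripts of each gene. The study sequenced RNA of mouse B cells purified by B220, a surface antigen of the B lineage. Of the 27 samples, 19 were B-cell lymphomas of mice labelled c-myc Igh transgenic (c-myc is an oncogene and Igh the immunoglobulin heavy chain locus), with 7 labelled hv, 7 cr and 4 co, and 1 lung lymphoma, T39, titled hv but described as CO. These lymphomas came from lung (12 samples), peripheral lymph node (3 samples) or mesenteric lymph node (4 samples, all cr). The 8 non-malignant samples were splenic B cells of healthy wt, cr, co and hv mice, with 1 sample of each genotype kept for 2 days with LPS, the lipopolysaccharide of bacterial outer membranes, and 1 left unstimulated, here called resting. No culture time is labelled for the resting samples, so LPS cannot be told apart from time in culture. All lymphomas came from lung or node and all non-malignant samples from spleen, so tumour state cannot be told apart from tissue of origin. Against LPS samples, tumour state also cannot be told apart from the 2 days with LPS. The cr, co and hv non-malignant samples carry the same transgenic label, so that 3 of the 4 LPS samples and 3 of the 4 resting samples share the transgene with the lymphomas, and the wt samples carry no such label. The labels do not say what hv, cr and co stand for, nor give ages or the transgene's promoter, nor say whether samples came from separate mice, so a p-value here compares a difference with the spread of these samples alone, which may be technical.

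The ER is where secreted and membrane proteins, immunoglobulins among them, enter the secretory pathway. The signal recognition particle brings the ribosome to the Sec61 channel, and the growing chain is then bound by the chaperone BiP (Hspa5), held by calnexin and calreticulin while its sugars are trimmed, and given its disulfide bonds by isomerases. Chains that do not fold are passed back to the cytosol by the ER-associated degradation machinery. When unfolded chains build up, the sensors IRE1 (Ern1), ATF6 and PERK start the unfolded protein response, in which IRE1 splices the mRNA of the transcription factor XBP1. In B cells this pathway is best known from plasma cells, which enlarge their ER to secrete antibody and need XBP1 to do so, and LPS drives splenic B cells to divide and in part toward that fate.

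As implied by the steps of the TPM values, libraries held from 11531400 to 32032600 read pairs (median 21464200). A count of 3 read pairs on a transcript of 1000 bases corresponded to 0.102 to 0.257 TPM, and the lowest values among the members were 1.13 TPM for Ern1 and 2.33 TPM for Derl3. The predicted gene Gm20594 took 10.9 to 34.3% of TPM and was highest in the mesenteric node cr T35 lymphoma, which also had the lowest sum of the 32 members among all samples, 1962 TPM. Gm10800, another predicted gene, took more than 1% of TPM in 4 libraries, namely hv LPS, cr LPS (18.6%), wt resting and mesenteric node cr T6. 9 B-cell markers, among them Cd79a and Pax5, summed to 1304 to 3513 TPM in lymphomas, 913 to 1888 TPM in LPS samples and 2490.0 to 4757 TPM in resting samples, and none was at 0 throughout a group. 9 erythroid markers summed to 16.8 to 1135 TPM in lymphomas, 176 to 2219 TPM in LPS samples and 11770.0 to 112700.0 TPM in resting samples. 12 macrophage markers summed to 12.5 to 317 TPM in lymphomas, 5.61 to 57.0 TPM in LPS samples and 181 to 1057 TPM in resting samples. 10 T-cell markers summed to 93.4 to 296 TPM in lymphomas, 40.8 to 52.1 TPM in LPS samples and 214 to 437 TPM in resting samples, and 8 neutrophil markers to 0.389 to 289 TPM in lymphomas, 0.177 to 14.7 TPM in LPS samples and 14.1 to 629.6 TPM in resting samples. None of these markers was at 0 throughout a group. 8 lung epithelium markers summed to 0.13 to 511 TPM in lymphomas, 2.76 to 4.56 TPM in LPS samples and 1.98 to 2.92 TPM in resting samples, in which Sftpc and Sftpa1 were at 0. 7 markers of pancreatic acinar cells, which are rich in ER, summed to 1143 TPM in the lung hv T7 lymphoma and at most 51.9 TPM in the other lymphomas, to 1.31 to 3.45 TPM in LPS samples and to 76.5 to 182 TPM in resting samples.

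Many ER chaperone genes share a promoter motif, the ER stress response element, which reads CCAAT, 9 bases of any kind and CCACG, and which ATF6 and XBP1 are known to act on with the CCAAT-binding factor NF-Y. Promoter windows from RefSeq on build GRCm38.p6, running from 250 bases before to 50 bases after a gene's start, were at hand for 24 of the 32 members. The element was found, on either strand, in 9 of these 24 (37.5%), namely Calr, Canx, Creld2, Derl3, Dnajc3, Hsp90b1, Hspa5, Pdia6 and Syvn1, and in 39 of all 32851 windows (0.119%). 8 of the 9 rose with LPS, Syvn1 (adjusted p = 0.0774) being the other, against 9 of the 15 members whose window lacked the element, where 25.2% of all genes tested rose and 58.2% were called. The difference between these subsets was not tested. Among genes that are no members, 28 had the element and 6 of these passed the filter, of which none rose and 2 fell with LPS. CCACG alone, the part of the element bound by ATF6, was in 20 of the 24 members and 32.8% of all windows, and CCAAT in 20 of the 24 and 37.4%. ACGTGG, a core that XBP1 can bind and whose reverse complement contains CCACG, was in 7 of the 24 members (29.2%) and in 8.31% of all windows. The windows of the 6 members with the element that had the largest LPS responses are shown 5′ to 3′ on the gene's strand, with the CCAAT and CCACG parts of the element, or their reverse complements ATTGG and CGTGG, in capitals. The element began 98 to 212 bases before the start, and Hsp90b1 held 2 copies in opposite orientation. A match describes these letters and is no evidence of binding.
Derl3 (chr10:75893148-75893447, plus strand): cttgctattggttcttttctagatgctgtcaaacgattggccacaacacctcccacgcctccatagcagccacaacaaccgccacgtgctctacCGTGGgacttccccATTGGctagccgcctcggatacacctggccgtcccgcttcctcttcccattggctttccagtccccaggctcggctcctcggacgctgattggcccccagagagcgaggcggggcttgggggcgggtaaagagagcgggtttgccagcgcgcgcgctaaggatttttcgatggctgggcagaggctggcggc
Creld2 (chr15:88819396-88819695, plus strand): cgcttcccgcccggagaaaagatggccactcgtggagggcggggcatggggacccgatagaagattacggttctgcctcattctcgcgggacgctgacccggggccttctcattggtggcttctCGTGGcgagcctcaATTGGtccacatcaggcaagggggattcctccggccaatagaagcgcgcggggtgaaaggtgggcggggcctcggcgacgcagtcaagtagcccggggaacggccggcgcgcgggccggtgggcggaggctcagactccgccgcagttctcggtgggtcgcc
Canx (chr11:50325624-50325923, minus strand): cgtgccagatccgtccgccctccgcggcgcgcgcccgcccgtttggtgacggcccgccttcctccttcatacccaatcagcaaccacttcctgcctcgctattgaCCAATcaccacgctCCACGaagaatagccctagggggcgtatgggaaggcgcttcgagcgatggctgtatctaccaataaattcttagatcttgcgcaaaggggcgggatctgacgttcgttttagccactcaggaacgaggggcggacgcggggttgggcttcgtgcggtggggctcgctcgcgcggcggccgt
Hsp90b1 (chr10:86705395-86705694, minus strand): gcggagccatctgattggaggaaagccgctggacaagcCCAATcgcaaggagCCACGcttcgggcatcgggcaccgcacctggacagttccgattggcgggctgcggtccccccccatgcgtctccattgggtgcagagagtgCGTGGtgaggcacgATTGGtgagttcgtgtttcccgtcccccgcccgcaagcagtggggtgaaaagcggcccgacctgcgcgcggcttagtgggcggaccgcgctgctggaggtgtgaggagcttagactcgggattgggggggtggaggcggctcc
Pdia6 (chr12:17266339-17266638, plus strand): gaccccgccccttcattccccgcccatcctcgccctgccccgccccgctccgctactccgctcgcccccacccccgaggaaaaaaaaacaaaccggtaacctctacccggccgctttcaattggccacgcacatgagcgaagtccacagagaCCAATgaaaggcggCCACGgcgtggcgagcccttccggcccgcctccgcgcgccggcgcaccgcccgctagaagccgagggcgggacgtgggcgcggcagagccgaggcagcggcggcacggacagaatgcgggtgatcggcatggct
Calr (chr8:84846882-84847181, minus strand): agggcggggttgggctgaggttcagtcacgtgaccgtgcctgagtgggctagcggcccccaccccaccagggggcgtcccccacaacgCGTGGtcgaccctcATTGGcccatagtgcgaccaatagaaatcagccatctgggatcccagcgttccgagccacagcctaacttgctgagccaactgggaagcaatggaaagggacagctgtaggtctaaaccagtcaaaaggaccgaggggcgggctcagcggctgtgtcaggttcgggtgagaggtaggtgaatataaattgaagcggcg

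Most of the ER folding and secretory genes were higher in LPS samples than in resting samples. 23 of the 32 members rose, 1 fell and 8 did not pass the test (limma on log2(TPM + 1), adjusted over all genes at a threshold of 0.05). The 2 groups were far apart in general, since 58.2% of the 11999 genes tested were called, 25.2% as higher and 33.0% as lower, and the members' count is to be read against that share. Their median log2 fold change was 0.79, where that of all genes tested was -0.16. The plot of TPM by sample shows 12 of them. The 32 genes together summed to 5516, 4465, 5270.0 and 5390.0 TPM in the wt, cr, co and hv LPS samples and to 2825, 2588, 2642 and 2404 TPM in the resting samples in the same order, which is kept for all values per sample that follow. The median of all genes was -0.30 when TPM were rescaled without Gm20594, Gm10800 and haemoglobin genes, and Herpud1 and Syvn1 then fell as well (adjusted p = 0.029 and 0.0151), as they did without wt LPS. In 22 members every LPS sample was above every resting sample, which held for 22.8% of all genes, and in 1 member every LPS sample was below, as in 29.5% of all genes. Lower values in bulk RNA cannot tell fewer cells of a type from less RNA per cell. Markers of other cells moved along with this comparison: 9 of 11 tested macrophage markers, 9 of 9 erythroid, 3 of 8 T-cell, 2 of 2 neutrophil and 7 of 7 pancreatic acinar markers fell in LPS samples, as did 8 of 9 B-cell markers, and their part in the members' values was not tested.

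**Figure D1:**
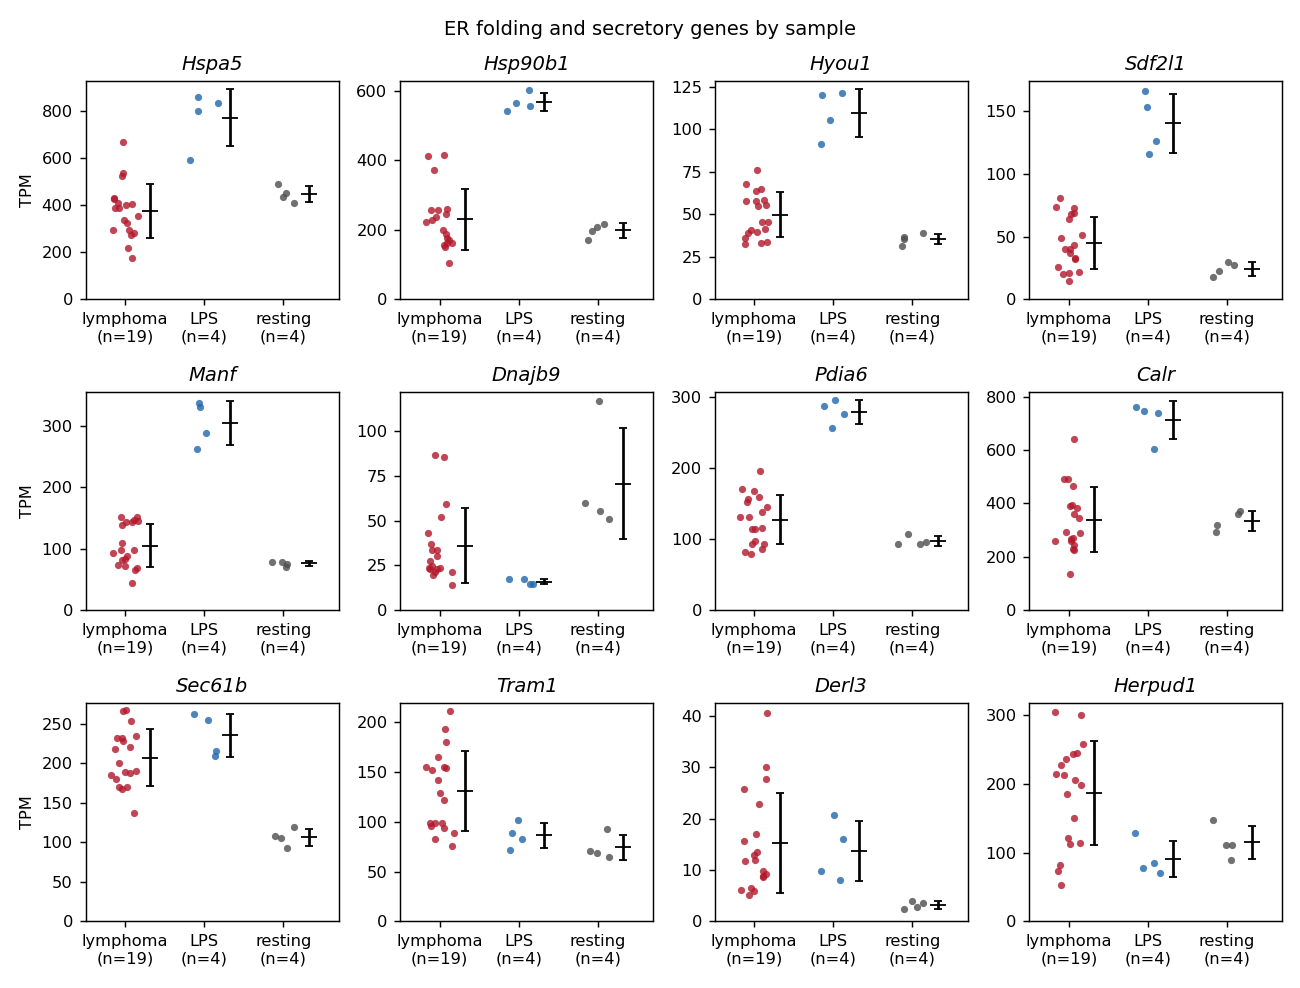
TPM of 12 members in every sample (points) with the mean and SD beside them, for lymphomas (n = 19), LPS samples (n = 4) and resting samples (n = 4). Sdf2l1, Manf, Hyou1, Hsp90b1, Pdia6 and Hspa5 are high in the LPS samples, Dnajb9 is high in the resting samples, and Derl3 and Sec61b are raised in both lymphomas and LPS samples.

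All 3 chaperones rose. Hspa5, which encodes BiP, the main ER chaperone of the HSP70 family, had the highest mean of all members in lymphomas, LPS and resting samples alike. It lies on chromosome 2 (34771970 to 34777547, GRCm38) and measured 857, 592, 831 and 797 TPM in LPS samples and 489, 408, 449 and 432 TPM in resting samples, a log2 fold change of 0.78 ± 0.18 (SE) and an adjusted p of 0.00248. Hsp90b1 (GRP94, the HSP90 of the ER, with clients such as integrins and Toll-like receptors) measured 556, 541, 603 and 565 TPM in LPS samples and 208, 169.9, 218 and 197 TPM in resting samples, a log2 fold change of 1.52 ± 0.16 (SE) and an adjusted p of 1.17e-05. In both genes the groups were clear of each other, and the 4 LPS values of Hsp90b1 lay within 1.11-fold. Hyou1 (GRP170, which lets BiP exchange its nucleotide) measured 121, 91.5, 106 and 120.3 TPM in LPS samples and 36.5, 35.3, 38.7 and 31.3 TPM in resting samples, a log2 fold change of 1.60 ± 0.17 (SE) and an adjusted p of 9.35e-06. Exons of Hsp90b1, as of Pdia3, Pdia4, Pdia6, Txndc5, Manf, Sec61a1, Syvn1 and Derl2, overlap those of other annotated genes, so their reads may be shared.

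Of the 6 co-chaperones 5 rose and 1 fell, and Sdf2l1, Dnajb9 and Manf had the 3 largest changes of all members. Sdf2l1, which keeps BiP cycling with the J protein Dnajb11, lies on chromosome 16 (17130138 to 17132383) and measured 153, 116, 126 and 167 TPM in LPS samples and 17.5, 29.6, 22.3 and 27.3 TPM in resting samples, a log2 fold change of 2.50 ± 0.20 (SE) and an adjusted p of 1.59e-06. Manf, a secreted ER stress protein that binds BiP, measured 330.5, 263, 288 and 336 TPM in LPS samples and 75.8, 70.9, 79.0 and 78.8 TPM in resting samples, a log2 fold change of 1.98 ± 0.16 (SE) and an adjusted p of 1.71e-06. Creld2, an ER stress-inducible protein, measured 77.2, 56.0, 52.2 and 69.1 TPM in LPS samples and 19.5, 20.8, 20.6 and 19.1 TPM in resting samples, a log2 fold change of 1.60 ± 0.17 (SE) and an adjusted p of 1.18e-05. In all 3 the lowest LPS sample was above the highest resting sample. The J protein genes were split: Dnajb11 rose by 1.11 on the log2 scale (adjusted p = 8.71e-05) and Dnajc3 (P58IPK, an inhibitor of the kinase PERK) by 0.65 (adjusted p = 0.00392). Dnajb9 (ERdj4, a J protein that recruits BiP to IRE1 and so restrains it; chromosome 12, 44205897 to 44210068) was the member that fell. It measured 17.2, 14.8, 14.7 and 17.2 TPM in LPS samples and 117, 50.9, 59.9 and 55.2 TPM in resting samples, a log2 fold change of -1.996 ± 0.24 (SE) and an adjusted p of 2.47e-05. Its wt resting value was the highest of all 27 samples, and every resting sample was above every LPS sample.

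Among the disulfide isomerases, Pdia6, which also attenuates IRE1 and PERK signalling, measured 287, 256, 277 and 296 TPM in LPS samples and 95.8, 92.6, 107 and 93.2 TPM in resting samples, a log2 fold change of 1.51 ± 0.16 (SE) and an adjusted p of 8.76e-06. Pdia3 (ERp57, the isomerase that works with calnexin and calreticulin) measured 134 ± 17.9 TPM in LPS samples and 70.8 ± 7.23 TPM in resting samples (SD, n = 4 each), a rise of 0.90 on the log2 scale (adjusted p = 0.000616). Pdia4 (log2 fold change 0.33 ± 0.19, adjusted p = 0.157) and Txndc5 (0.26 ± 0.18, adjusted p = 0.23) did not pass the test. Both lectin chaperones rose. Calreticulin (Calr, soluble in the ER lumen) measured 746, 605, 762 and 738 TPM in LPS samples and 361, 372, 318 and 293 TPM in resting samples, a log2 fold change of 1.08 ± 0.17 (SE) and an adjusted p of 0.000184, while its membrane-bound counterpart calnexin (Canx) measured 405, 340.3, 506 and 428 TPM in LPS samples and 120.3, 156, 158 and 141 TPM in resting samples, a log2 fold change of 1.53 ± 0.18 (SE) and an adjusted p of 2.32e-05. The prolyl isomerase gene Fkbp11, known as a secretory-cell gene, measured 10.03, 25.4, 12.6 and 21.1 TPM in LPS samples and 3.46, 10.9, 11 and 9.81 TPM in resting samples and did not pass (adjusted p = 0.0645), with wt the lowest sample of both groups. It was called without the wt LPS sample (1.13, adjusted p = 0.0379), with limma without trend and robust settings (0.92, adjusted p = 0.0486) and with genotype as a replicate block (0.92, adjusted p = 0.000536).

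6 of the 7 targeting and translocation genes rose. Srp19 and Srp54a, protein subunits of the signal recognition particle, rose by 1.33 (adjusted p = 3.35e-05) and 0.76 (adjusted p = 0.00311) on the log2 scale. Srp54a has near-identical copies in mouse, among which reads are divided by estimate, and one of them, Srp54c, measured 91.2 ± 16.8 TPM in LPS samples and 62.9 ± 4.86 TPM in resting samples (SD, n = 4 each). The channel subunit Sec61b measured 255, 215, 209.5 and 262 TPM in LPS samples and 93.4, 119, 108 and 105 TPM in resting samples, a log2 fold change of 1.14 ± 0.17 (SE) and an adjusted p of 0.000105. The pore-forming Sec61a1 rose by 1.03 (adjusted p = 0.000214), the signal peptidase subunit Sec11c by 0.68 (adjusted p = 0.00294) and the translocon-associated Ssr4 by 0.48 (adjusted p = 0.0231). Tram1, a membrane protein beside the channel, stayed uncalled at 0.22 ± 0.18 (adjusted p = 0.315).

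Of the ER-associated degradation genes, 4 of 7 were called as higher. Derl3, one of 3 derlins that form the exit channel and the one found mainly in secretory cells, measured 20.8, 16.04, 8.11 and 9.88 TPM in LPS samples and 2.33, 3.63, 3.94 and 2.77 TPM in resting samples, a log2 fold change of 1.75 ± 0.27 (SE) and an adjusted p of 0.000148. Its level in the wt and cr LPS samples was above that in the co and hv LPS samples, and all 4 were above the resting samples. Derl2 rose by 0.65 (adjusted p = 0.00566), and Derl1 was uncalled at 0.05 ± 0.20. Edem1, which picks mannose-trimmed chains for disposal, and Sel1l, the partner of the ubiquitin ligase HRD1, rose by 0.58 (adjusted p = 0.034) and 0.48 (adjusted p = 0.0365). These calls and that of Ssr4 were lost in 6 or 7 of 16 alternatives, for each of the 3 genes without cr resting, hv resting, wt LPS or hv LPS among others, whereas the other 21 calls held in all 16. HRD1 itself, encoded by Syvn1, measured 30.4, 19.7, 15.3 and 21.6 TPM in LPS samples and 30.1, 29.6, 32.7 and 24.9 TPM in resting samples (adjusted p = 0.0774), and Herpud1, which organises the HRD1 complex, 129, 70.8, 78.0 and 84.2 TPM in LPS samples and 148, 111, 111 and 89.7 TPM in resting samples (adjusted p = 0.181). Of the sensors, Atf6 rose by 0.80 (adjusted p = 0.00374) and Ern1, at 5.92 ± 1.61 TPM in LPS samples and 4.13 ± 0.701 TPM in resting samples (SD, n = 4 each), was uncalled (adjusted p = 0.115).

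**Figure D2:**
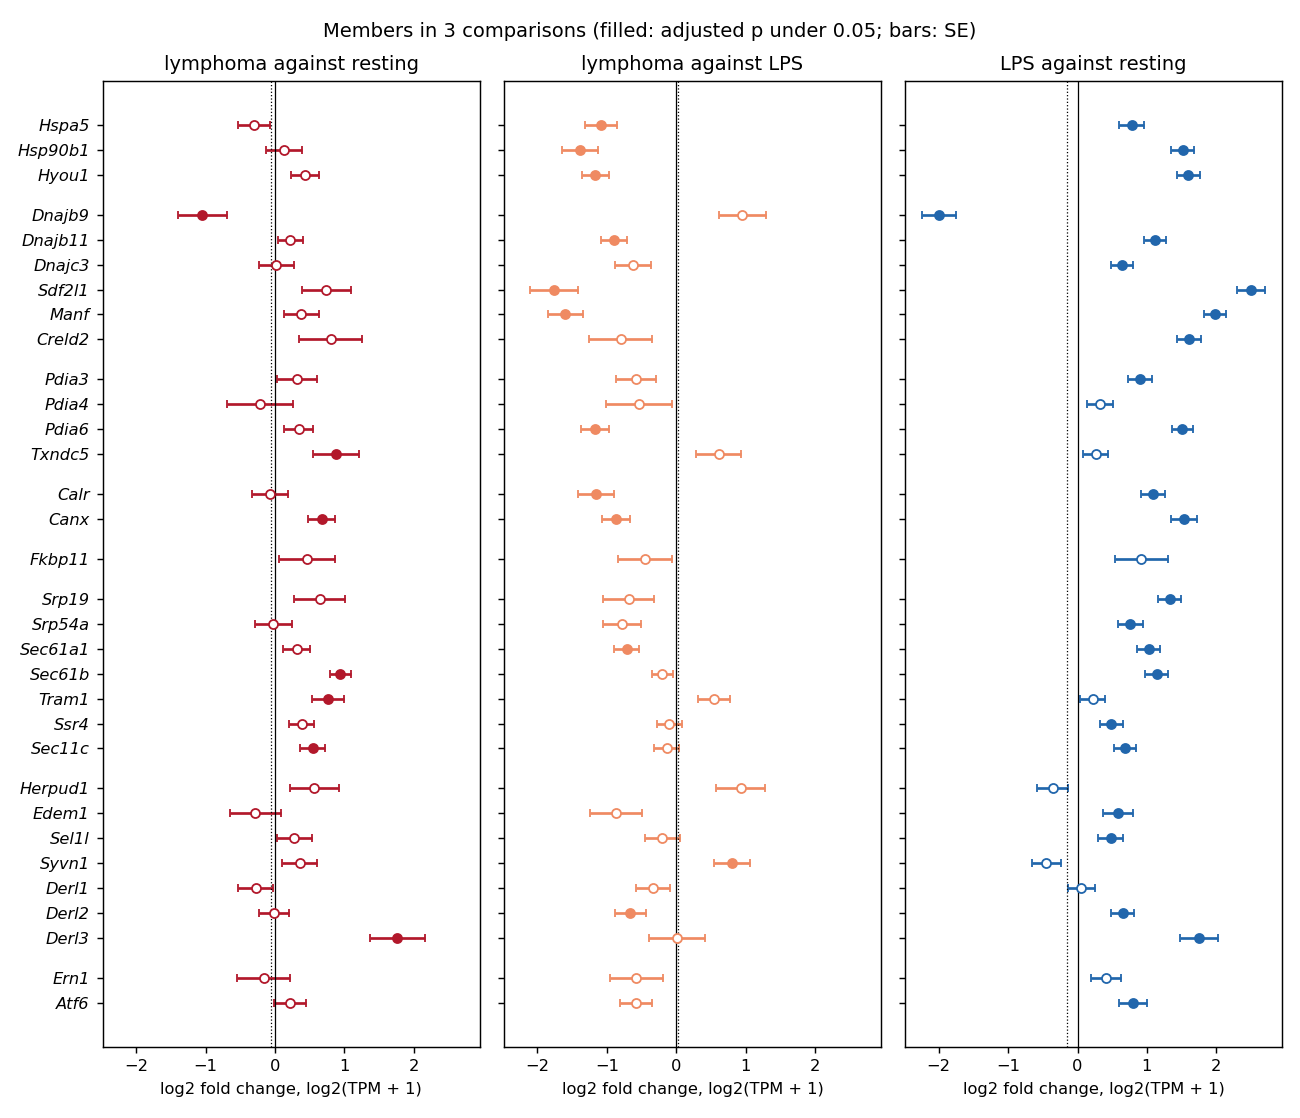
log2 fold change (x axis, on log2(TPM + 1)) of the 32 members, grouped by role, for lymphoma against resting, lymphoma against LPS and LPS against resting samples; filled points passed an adjusted p under 0.05, bars are the SE, and the dotted line is the median of all genes tested. In the LPS panel 23 filled points lie to the right and Dnajb9 alone to the left, while lymphoma against LPS has 11 filled points to the left and Syvn1 to the right.

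The lymphomas lay below the LPS samples in much of this list. Of the 32 members, 11 fell, 1 rose and 20 did not pass in lymphoma against LPS samples, where 13.8% of the 12880 genes tested were called, 5.27% as higher and 8.56% as lower. As the plot of fold changes by role shows, most of the fallen members were chaperones, co-chaperones and folding enzymes. The members' median log2 fold change was -0.61 and that of all genes 0.03. In 7 members every lymphoma was below every LPS sample, as in 2.05% of all genes, and in 0 was every lymphoma above, as in 1.29% of all genes. This comparison shares its LPS samples with the preceding one, so the 2 sets of values are not independent of each other.

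The chaperones and co-chaperones held the largest falls, with 3 of 3 and 3 of 6 called as lower, where 8.56% of all genes were. Sdf2l1 ranged over 14.2 to 80.8 TPM (median 40.4) in lymphomas, against 153, 116, 126 and 167 TPM in LPS samples, a log2 fold change of -1.76 ± 0.35 (SE) and an adjusted p of 0.00127. Manf ranged over 44.3 to 152 TPM (median 97.5) in lymphomas, against 330.5, 263, 288 and 336 TPM in LPS samples, a log2 fold change of -1.60 ± 0.25 (SE) and an adjusted p of 0.000103. Neither gene's lymphoma values reached the lowest LPS sample. Hsp90b1 ranged over 103 to 414 TPM (median 221) in lymphomas, a log2 fold change of -1.39 ± 0.26 (SE) and an adjusted p of 0.000621, and Hyou1 over 32.4 to 75.9 TPM (median 45.5), a log2 fold change of -1.17 ± 0.20 (SE) and an adjusted p of 0.00025. Both stayed below all LPS samples in all 19 lymphomas. Hspa5 ranged over 176 to 665 TPM (median 387) and fell by 1.09 on the log2 scale (adjusted p = 0.00248), with the peripheral node hv T8 lymphoma inside the range of the LPS samples. Dnajb11 fell by 0.89 (adjusted p = 0.00185). Of the other co-chaperones, Creld2 (-0.80 ± 0.46) and Dnajc3 (-0.63 ± 0.26) were uncalled. So was Dnajb9, which went the other way (0.95 ± 0.34).

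Pdia6 ranged over 79.7 to 196 TPM (median 131) in lymphomas, a log2 fold change of -1.17 ± 0.20 (SE) and an adjusted p of 0.000289, again below all LPS samples. Calr ranged over 138 to 642 TPM (median 295), a log2 fold change of -1.15 ± 0.26 (SE) and an adjusted p of 0.00361, and the highest lymphoma, lung hv T16, exceeded the cr LPS sample. Canx was the member called in opposite directions in the lymphomas, below the LPS and above the resting samples. It ranged over 127 to 325 TPM (median 224) in lymphomas, against 405, 340.3, 506 and 428 TPM in LPS samples and 120.3, 156, 158 and 141 TPM in resting samples, with log2 fold changes of -0.86 ± 0.20 against LPS (adjusted p = 0.00515) and 0.67 ± 0.20 against resting samples (adjusted p = 0.0122). Sec61a1 fell by 0.72 (adjusted p = 0.0107), like Canx with every lymphoma below every LPS sample, and Derl2 by 0.66 (adjusted p = 0.0442). Syvn1 was the member that rose, at 18.8 to 66.5 TPM (median 39.8) in lymphomas against 30.4, 19.7, 15.3 and 21.6 TPM in LPS samples, a log2 fold change of 0.81 ± 0.26 (SE) and an adjusted p of 0.04, with overlap. Dnajb11, Hsp90b1, Hspa5, Hyou1, Manf and Pdia6 were called under every alternative tried. Without the 2 LPS libraries and the 1 lymphoma library with over 1% Gm10800, 6 members remained called. Calls over all genes then went from 1782 of 12880 to 433 of 12700. Syvn1 and Derl2 were each lost in 8 of 19 alternatives. Both were lost without lung hv T7 (adjusted p = 0.0502 and 0.0565), without co LPS or without hv LPS, Syvn1 also without cr LPS and Derl2 without wt LPS. Here 5 of 10 tested macrophage markers, 3 of 9 B-cell markers and 1 of 9 T-cell markers (Cd2, 2.14, adjusted p = 2.9e-06) rose and 6 of 8 erythroid markers fell in lymphomas, and their part was not tested. The summed T-cell markers, at 93.4 to 296 TPM in lymphomas and 40.8 to 52.1 TPM in LPS samples, did not overlap.

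Against resting samples the lymphomas showed few differences in these genes. 6 members rose, 1 fell and 25 did not pass, while 31.9% of the 13239 genes tested were called, 14.5% as higher and 17.4% as lower. The members' share called was thus below that of all genes in total and for falls, but not for rises. Of all called genes 45.4% were higher, and 31.9% with the same rescaling of TPM, under which 5 members were called. The median log2 fold change of the members was 0.33 and that of all genes -0.06, or -0.20 with the rescaling. In 2 members, Derl3 and Sec61b, every lymphoma was above every resting sample, as in 4.00% of all genes, and both calls held under every alternative. In 0 members was every lymphoma below, as in 4.92% of all genes. Derl3 ranged over 5.12 to 40.5 TPM (median 11.9) in lymphomas, against 2.33, 3.63, 3.94 and 2.77 TPM in resting samples, a log2 fold change of 1.76 ± 0.39 (SE) and an adjusted p of 0.00132. Sec61b ranged over 137 to 267 TPM (median 200.4) in lymphomas, against 93.4, 119, 108 and 105 TPM in resting samples, a log2 fold change of 0.94 ± 0.15 (SE) and an adjusted p of 3.94e-05. Neither differed detectably from the LPS samples, with 95% intervals of the log2 difference of -0.82 to 0.84 for Derl3 and -0.51 to 0.11 for Sec61b.

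The other called members overlapped with the resting samples. Txndc5 (an isomerase abundant in plasma cells) ranged over 50.2 to 384 TPM (median 105) in lymphomas, with the top value in lung co T30, against 52.8, 53.2, 72.0 and 48.8 TPM in resting samples, a log2 fold change of 0.88 ± 0.33 (SE) and an adjusted p of 0.0424. Tram1 ranged over 75.9 to 212 TPM (median 129), against 92.7, 70.9, 65.2 and 68.7 TPM in resting samples, a log2 fold change of 0.76 ± 0.23 (SE) and an adjusted p of 0.0126, and Sec11c rose by 0.55 (adjusted p = 0.0245). Dnajb9 ranged over 14.1 to 86.9 TPM (median 27.5) in lymphomas, against 117, 50.9, 59.9 and 55.2 TPM in resting samples, a log2 fold change of -1.04 ± 0.35 (SE) and an adjusted p of 0.0254. Dnajb9 lay between the other groups, since it was also higher than in LPS samples by 0.95 ± 0.34 without passing (adjusted p = 0.0596). Creld2 had the fifth largest difference, 0.81 ± 0.46, and did not pass (adjusted p = 0.178), with 11.5 to 139 TPM (median 26.8) in lymphomas. The count of called members was 4 without wt resting or without co resting, 4 without the libraries over 1% Gm10800 and 4 with separated-name lymphomas alone (a subset explained with the sites). In these fits, in the same order, calls over all genes numbered 2749, 3179, 2746 and 3231, against 4229 with all samples. Dnajb9 was not called in the first 3 of these, nor with lung or joined-name lymphomas alone. Against LPS samples it was called as higher with lung lymphomas alone (1.15, limma adjusted p = 0.0254) and joined-name lymphomas alone (1.34, adjusted p = 0.0113). The same held with all samples fitted together (0.95, adjusted p = 0.0495). Txndc5 was lost in 10 of 19 alternatives, among them each of the 4 that left out 1 resting sample and the one without lung hv T7 (adjusted p = 0.0521). Canx was lost without wt resting, Tram1 without co resting, and Sec11c without cr or hv resting. In lymphomas 10 of 12 macrophage, 9 of 9 erythroid, 4 of 9 T-cell, 5 of 5 neutrophil and 7 of 7 pancreatic acinar markers were lower than in resting samples, and their part was not tested.

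Neighbouring genes of the same pathway were counted from lists of 109 genes in 7 classes. With LPS 54 of the 106 tested rose and 14 fell, where 25.2% of all genes tested rose and 33.0% fell. N-glycosylation had the highest share, with 13 of 15 rising, led by Rpn1 (2.002 on the log2 scale, adjusted p = 1.79e-06), a subunit of the oligosaccharyltransferase, which measured 119.6 ± 8.79 TPM in LPS samples and 29.2 ± 3.7 TPM in resting samples (SD, n = 4 each). Of 18 further targeting and translocation genes 12 rose, among them Ssr2 (1.70), and 1, Sec62 (-1.14), fell. COPII export (11 of 20 up, 2 down) was led by the cargo receptor Lman1 (1.84), COPI and retrieval (5 of 11 up, 2 down) by the KDEL receptor Kdelr2 (1.38), and oxidative folding (7 of 15 up, 4 down) by the oxidase Ero1l (2.14) and by Mzb1 (1.69), a B-cell helper of BiP and GRP94. Further degradation genes, led by the ATPase Vcp (1.12), rose in 4 of 15, near the share of all genes, and fell in 1. The regulators of the unfolded protein response did not move together, with 2 of 12 rising and 4 falling. Xbp1 rose with 138, 112, 86.7 and 104 TPM in LPS samples and 53.5, 44.4, 47.7 and 44.9 TPM in resting samples (1.18 ± 0.18, adjusted p = 0.00014), as did Trib3. By contrast Ddit3 (CHOP, a transcription factor induced through PERK) measured 20.3, 5.95, 8.88 and 7.65 TPM in LPS samples and 89.0, 55.1, 54.2 and 48.0 TPM in resting samples (-2.52 ± 0.34, adjusted p = 0.000145), Ppp1r15a (GADD34, which reverses the translation block set by PERK) fell by 3.77, and Atf4 was uncalled at 0.19 ± 0.23.

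In lymphomas against LPS samples, 2 of these 106 genes rose and 18 fell, where 5.27% of all genes tested rose and 8.56% fell. Against resting samples 21 of 107 rose and 6 fell, where 14.5% of all genes tested rose and 17.4% fell. Of the 12 regulators of the unfolded protein response, 4 fell and 0 rose against resting samples. Ppp1r15a was lower by 3.08 (limma adjusted p = 2.26e-05) and Ddit3 by 1.05 (adjusted p = 0.026), so their fall was not particular to LPS samples. Ddit3, at 13.6 to 74.3 TPM (median 26.3) in lymphomas, was higher than in LPS samples by 1.47 (adjusted p = 0.00922). Xbp1 ranged over 11.9 to 83.7 TPM (median 38.0) in lymphomas, -1.55 ± 0.43 against LPS (adjusted p = 0.0179) and -0.37 ± 0.43 against resting samples (adjusted p = 0.528). Rpn1, at 37.8 to 139 TPM (median 72.3), and Lman1, at 24.2 to 43.4 TPM (median 34.5), resembled Canx in being called in both comparisons, lower than LPS (-0.74 and -0.91) and higher than resting samples (1.26 and 0.93). Of the N-glycosylation genes, 4 of 15 fell against LPS and 8 of 15 rose against resting samples, the most of any class in each comparison.

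Plasma cell regulators were counted as a further list, which shares Xbp1 with the regulators of the unfolded protein response. With LPS 4 of 8 tested rose and none fell, where 25.2% of all genes tested rose and 33.0% fell. In lymphomas 3 of 9 fell against LPS samples, where 8.56% of all genes fell. Against resting samples 2 of 8 fell, where 17.4% of all genes fell. These were Jchain (-2.725, limma adjusted p = 0.0439) and Irf4 (-0.876, limma adjusted p = 0.0443). The plasma cell regulator Prdm1 measured 17.1, 16.4, 8.4 and 12.8 TPM in LPS samples and 3.58, 2.44, 0.88 and 1.53 TPM in resting samples (2.27 ± 0.29, adjusted p = 5.31e-05), and 0.055 to 7.15 TPM (median 1.69) in lymphomas (-2.44 ± 0.46 against LPS, adjusted p = 0.000742). The plasma cell surface marker Sdc1 rose with LPS by 1.098 (adjusted p = 0.014), with means of 7.5 ± 2.9 TPM in LPS samples and 2.93 ± 1.31 TPM in resting samples (SD, n = 4 each). Jchain was uncalled with LPS (adjusted p = 0.278). Of 4 immunoglobulin constant genes, 1 rose and 1 fell with LPS, and 1 fell in lymphomas in each comparison. Ighm rose with LPS by 0.90 (adjusted p = 0.0176) and Igkc did not pass (0.22 ± 0.23), and Igkc was lower in lymphomas than in LPS samples by 0.88 (adjusted p = 0.0461).

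**Figure D3:**
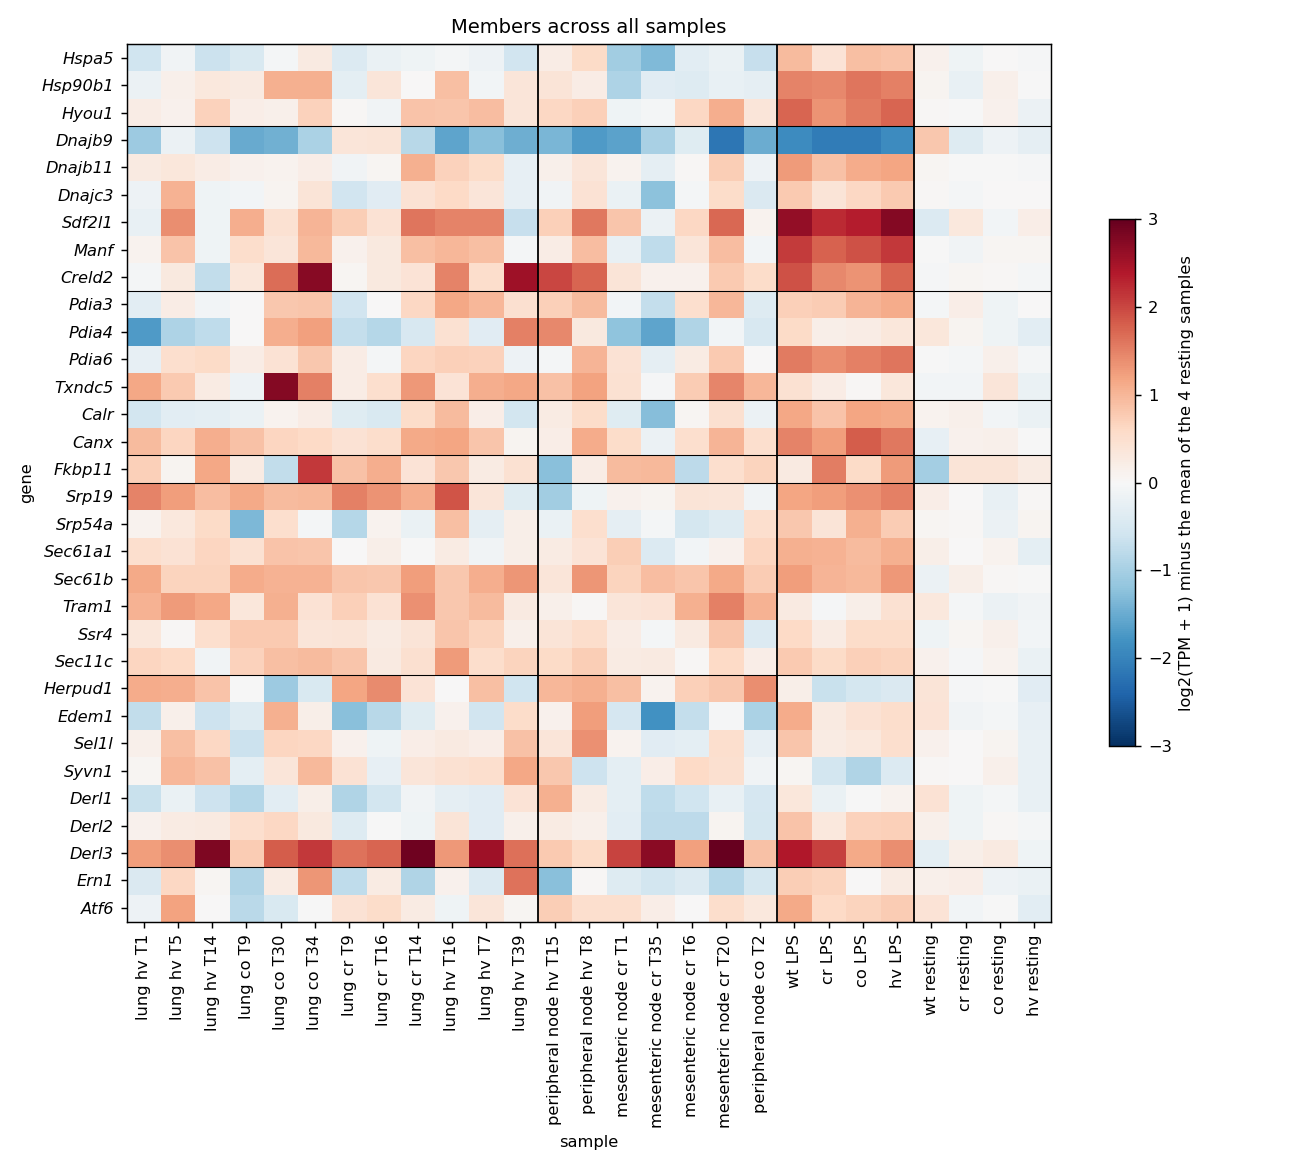
Level of each member (rows, grouped by role) in each of the 27 samples (columns, from lung lymphomas through node lymphomas and LPS samples to resting samples), as log2(TPM + 1) minus the mean of the 4 resting samples. Red is higher and blue lower: the LPS columns are red in most rows and blue for Dnajb9, and the lymphoma columns differ from each other, with mesenteric node cr T35 the lowest in 10 of 32 rows.

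The lymphomas differed in site and line. In all 32 members they had a larger SD on the log2 scale than the LPS samples and than the resting samples. This difference was not tested, and the share of all genes with the same pattern was not computed. The widest member was Pdia4, at 45.0 to 428 TPM (median 106), from lung hv T1 to lung hv T39, with an SD of 0.98 on the log2 scale. Creld2 (SD 0.95), Derl3 (0.81) and Fkbp11 (0.77) followed closely. The most even was Sec61b, with an SD of 0.26. Lung hv T16 had the highest value of 8 members and mesenteric node cr T35 the lowest of 10, and their summed levels were 4177 and 1962 TPM.

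10 members varied with Xbp1 across the 19 lymphomas, as the plots against Xbp1 show for 4 of them. The level of Xbp1 is summed over its transcripts and does not tell spliced from unspliced mRNA. Of 32 correlations of a member with Xbp1 on log2(TPM + 1), 10 passed by both Pearson's r and Spearman's rho (permutation tests with 100000 resamples, adjusted over 32), and all 10 were positive: Pdia3, Manf, Calr, Hspa5, Hyou1, Sdf2l1, Dnajc3, Dnajb11, Pdia6 and Ssr4. Pdia3 had r = 0.85 and rho = 0.89 (permutation p = 3e-05 and 1e-05, adjusted p = 0.00043 and 0.00032), Manf r = 0.84 and rho = 0.85 (permutation p = 1e-05 and 2e-05, adjusted p = 0.00032 and 0.00032) and Hspa5 r = 0.76 and rho = 0.72 (permutation p = 0.00017 and 0.00093, adjusted p = 0.0014 and 0.0053). The smallest p these resamples can give is 1e-05. Over all 32 members the median r was 0.37 and 84.4% were positive. Genes outside the members were not correlated with Xbp1, so the count of 10 has no share of all genes beside it. Xbp1 was lowest in mesenteric node cr T35 and cr T1, the 2 samples farthest from its median. Without them r was 0.83 for Pdia3, 0.77 for Manf and 0.61 for Hspa5, and 7 members passed, all of them among the 10. Dnajb11, Dnajc3 and Ssr4 no longer did. Xbp1 was highest, at 83.7 TPM, in lung hv T7, the library with 1143 TPM of pancreatic acinar markers. Without it r was 0.84 for Pdia3, 0.83 for Manf and 0.78 for Hspa5, and 11 members passed, the 10 named and Pdia4. Within the 9 joined-name and the 10 separated-name lymphomas r was 0.72 and 0.93 for Pdia3, 0.77 and 0.90 for Manf, 0.80 and 0.78 for Hspa5, but 0.29 and 0.95 for Hyou1 and 0.06 and 0.80 for Ssr4. All levels of a library share a fixed total, and cr T35 is the library with 34.3% of TPM in Gm20594, whose part was not tested. Members that did not pass included Dnajb9 (r = -0.09 and rho = -0.14), Herpud1 (r = -0.20 and rho = -0.27), Derl3 (r = 0.10 and rho = 0.13) and both sensors.

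**Figure D4:**
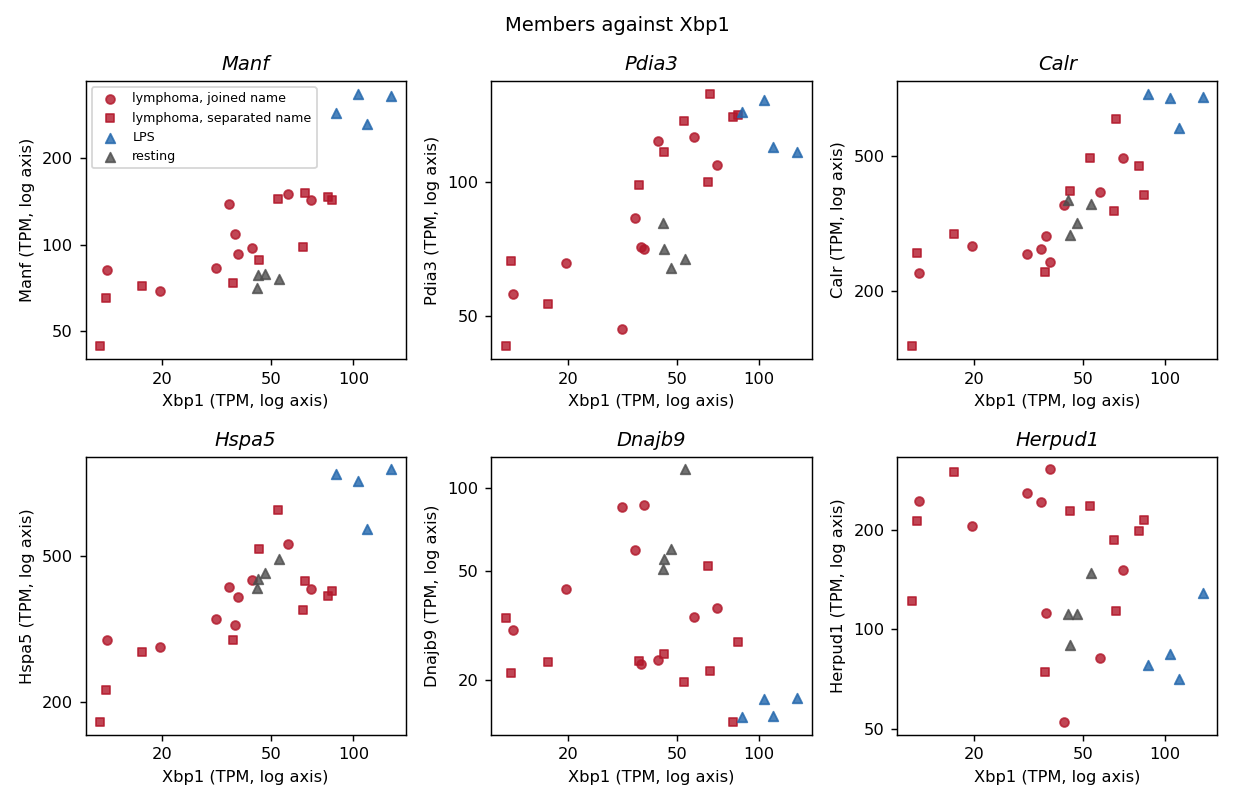
TPM of 6 members (y axes, log scale) against TPM of Xbp1 (x axes, log scale) in each lymphoma (red circles for joined names, red squares for separated names), LPS sample (blue) and resting sample (grey). Manf, Pdia3, Calr and Hspa5 rise with Xbp1 across the lymphomas, and Dnajb9 and Herpud1 do not.

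Lung and node lymphomas differed in a single member, shown in the plot of Srp19 by site, and 11 of 16 alternatives lost it. All genes tested had a median log2 fold change of 0.12, and -0.01 with median-of-ratios scaling. With line as a term and the lymphoma of unclear line left out, 1 of 32 members passed, against 0.0160% of the 12480 genes tested, that is 2 genes in all, 0.00801% as higher and 0.00801% as lower. This was Srp19 (chromosome 18, 34330847 to 34336599). It ranged over 15.8 to 79.5 TPM (median 46.0) in the 12 lung lymphomas and 9.49 to 27.3 TPM (median 21.9) in the 7 node lymphomas, a log2 fold change of 1.34 ± 0.21 (SE) and an adjusted p of 0.0292 with 11 lung lymphomas in the fit. Site and the style of the sample names went together: in their descriptions 9 lymphomas, all from lung, have names with the parts joined, and 3 from lung and all 7 from node have them separated. Srp19 measured 40.4 to 60.8 TPM in the joined-name lung lymphomas, and 79.5, 26.8 and 15.8 TPM in the separated-name lung lymphomas hv T16, hv T7 and T39. Within separated names the difference was 0.67 on the log2 scale (adjusted p = 0.866), and with name style as a term it was 1.42 (adjusted p = 1). Among the alternatives that lost the call were those without mesenteric node cr T35 (log2 fold change 1.33, adjusted p = 0.0521) and without peripheral node hv T15 (1.14, adjusted p = 0.128). That last library had the lowest Srp19, 9.49 TPM, and the highest sum of lung epithelium markers of all samples, 511 TPM, of which Krt18 made 510.5 TPM, with Sftpc, Sftpb, Sftpa1, Scgb1a1 and Cldn18 at 0.

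No other member passed by site. Dnajb9 ranged over 21.6 to 86.9 TPM (median 32.2) in lung and 14.1 to 51.8 TPM (median 23.3) in node lymphomas and was the second largest difference (0.80 ± 0.28, adjusted p = 0.78). Fkbp11 (0.55 ± 0.38), Derl3 (0.47 ± 0.36), Creld2 (-0.42 ± 0.39) and Hsp90b1 (0.40 ± 0.21) came next, with adjusted p between 0.887 and 0.953. For Hspa5 the 95% interval of the log2 difference was -0.42 to 0.55, for Sec61b -0.21 to 0.42 and for Pdia4 -1.018 to 0.62. A difference of 2-fold was therefore outside the interval for the first 2 and inside it for Pdia4. It was also inside the interval for Dnajb9 (0.21 to 1.40), Fkbp11 (-0.24 to 1.35), Derl3 (-0.29 to 1.23), Creld2 (-1.24 to 0.39) and Ern1 (-0.26 to 1.05), none of which passed. At an unadjusted p under 0.05 limma gave 2 members, Srp19 and Dnajb9, and 5.78% of all genes. None of the 106 further pathway genes passed, with 3 at an unadjusted p under 0.05.

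**Figure D5:**
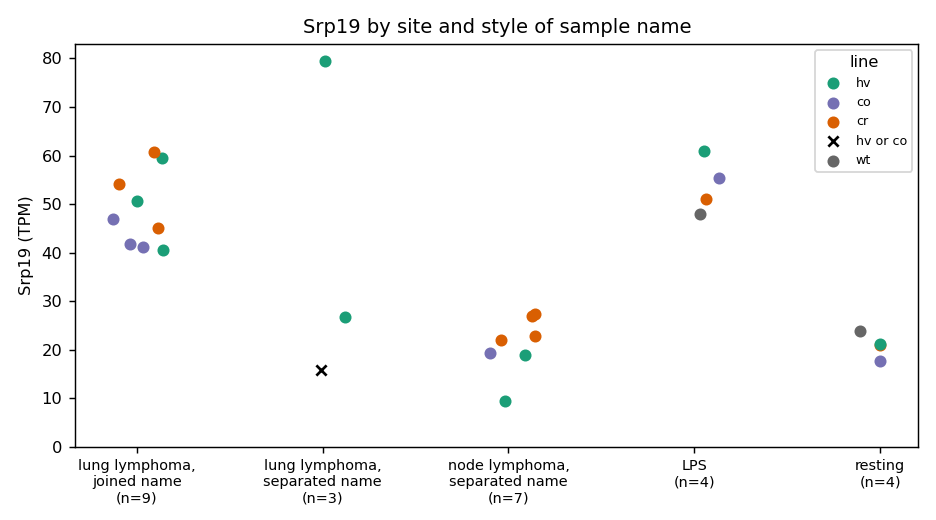
Srp19 (TPM, y axis) in each sample, with lung lymphomas divided by the style of their names, then node lymphomas, LPS samples and resting samples; colours give the line. The 9 joined-name lung lymphomas lie between 40.4 and 60.8 TPM, above all node lymphomas, and the 3 separated-name lung lymphomas are spread from 15.8 to 79.5 TPM.

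Between the lines no member passed. In cr against hv lymphomas, and likewise in co against the mean of hv and cr, limma called 0 of 32 members and 0% of the 12480 genes, and 4 members each had an unadjusted p under 0.05, where 9.13% and 4.60% of all genes did. The largest differences of cr against hv were in Derl3, at 8.73 to 40.5 TPM (median 15.7) in 7 cr and 5.12 to 27.8 TPM (median 9.2) in 7 hv lymphomas (0.84 ± 0.40, adjusted p = 0.546), and in Edem1, at 5.96 to 22.7 TPM (median 13.8) in cr and 13.7 to 56.9 TPM (median 25.9) in hv lymphomas (-0.80 ± 0.36, adjusted p = 0.546). Pdia4 (-0.67 ± 0.43), Srp54a (-0.62 ± 0.28), Dnajb9 (0.60 ± 0.31) and Creld2 (-0.56 ± 0.42) followed. All genes tested had a median of -0.17 in this comparison, and -0.03 with median-of-ratios scaling. In the 4 co lymphomas Pdia4 measured 151, 316 and 352 TPM in lung T9, T30 and T34 and 106 TPM in peripheral node T2, against 45.0 to 404 TPM (median 118) in hv and 49.2 to 141 TPM (median 81.6) in cr lymphomas (1.024 ± 0.44, adjusted p = 1). Creld2 (0.87 ± 0.44), Herpud1 (-0.82 ± 0.33), Dnajb9 (-0.56 ± 0.32), Derl3 (-0.56 ± 0.41) and Atf6 (-0.56 ± 0.23) followed. The unadjusted 95% interval of the log2 difference was 0.10 to 1.95 for Pdia4 and -0.48 to 0.61 for Hspa5.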

How the data were processed

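RNA of B220-purified B cells, freed of ribosomal RNA, was made into stranded paired-end libraries, per the labels' protocols. FastQC and kallisto 0.43 were the tools and mm10 (GRCm38) the build, per the submitters' processing notes. Kallisto splits ambiguous reads among transcripts by estimate. Not given in the sources used here are the annotation release and strand setting. Overlapping and antisense genes may therefore share reads. The authors deposited TPM for 88198 transcripts, which were summed to 30735 genes by Ensembl identifier. Read pairs were inferred from TPM times effective length. Since 62.0 to 76.7% of values between 1 and 20 pairs were whole within 0.02, they served for depth only, and floors cover counting error only. No library was identical to another.

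Tests used limma 3.58.1 (trend, robust, two-sided) on log2(TPM + 1), a scale that understates changes of low genes, for genes reaching 1 TPM in 4 or more samples of the fit. P-values were adjusted by Benjamini-Hochberg over all genes of a fit. Comparisons with LPS or resting samples used their own groups, and site and line were fitted together on 18 lymphomas. Correlations were tested by permutation (100000 resamples). Members, lists and rules were chosen with earlier results of these data known. Values are given in full for up to 6 members with the largest differences per comparison and for members called in opposite directions. Of other lists, the 2 highest and 2 lowest called genes (here in part) and 9 chosen genes are named. Alternatives covered pseudocounts (0.1 and 5), the filter, scaling, limma settings, left-out libraries, sites, name styles and a genotype block. 1 further B-cell marker is not reported here. The test was tried on simulated data. Software was R 4.3.3 (with version 1.17.8 of data.table) and Python 3.11.15 with numpy 2.4.6, pandas 2.3.3, matplotlib 3.10.9 and scipy 1.17.1.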

Additional observations from a re-analysis of the deposited data

Results flagged for a closer look

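Among 96 groups of 4 to 10 samples examined, 5 held a sample far from the rest by Dixon's criterion on log2(TPM + 1). The criterion flags about 1 in 20 by chance if groups are independent, but these groups share samples across members. Calr in cr LPS was 605 TPM, against 737 to 762 TPM in the other LPS samples, and Ssr4 in cr LPS was 113 TPM, against 140 to 146 TPM. The cr LPS library is the one with 18.6% of TPM in Gm10800, whose part in these values was not tested. Dnajb11 in wt resting was 46.4 TPM, against 43.8 to 44.1 TPM in the other resting samples, and Fkbp11 in wt resting was 3.46 TPM, against 9.81 to 11 TPM. The wt resting library held 3.65% of TPM in Gm10800, whose part here was not tested either. Srp19 in the peripheral node hv T15 lymphoma was 9.49 TPM, against 19 to 27.3 TPM in the other node lymphomas.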

How the results depend on the processing

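No called member changed sign under any alternative tried. In LPS against resting samples 21 to 26 of 32 members were called, 21 to 24 with 1 sample left out. Genotype as a replicate block gave 25 members, Fkbp11 being the one added, and 7250 genes, against 24 and 6981 without it; deviations of same-genotype samples correlated at 0.06 (wt), 0.22 (cr), 0.34 (co) and 0.06 (hv), and cr and co correlated best with their own genotype. As wt and hv were under 0.1, the genotypes were not treated as pairs, and the labels do not say whether samples of a genotype came from 1 mouse. In lymphoma against resting samples 7 members were called, 4 without libraries over 1% Gm10800, 4 with separated-name lymphomas only and 4 to 5 with 1 resting sample left out. Calls over all genes numbered 4229, and 2746 without libraries over 1% Gm10800. The cause was not tested. With lung lymphomas alone, Srp19 (limma adjusted p = 0.0101) and Ssr4 (adjusted p = 0.0291) were added against resting samples, and Dnajb9 and Txndc5 were lost. The same 4 genes changed with joined-name lymphomas alone. With node lymphomas alone, Herpud1 was added as higher (adjusted p = 0.0186), and Canx, Sec11c and Tram1 were lost. Against LPS 12 were called, 6 without libraries over 1% Gm10800, a fit with 2 fewer LPS samples, and 10 to 11 with 1 LPS sample left out. Over all genes 1782 were called, and 433 without libraries over 1% Gm10800. With node lymphomas alone, Herpud1 was added as higher than LPS samples (limma adjusted p = 0.00947) and Syvn1 was lost. Srp19 (-1.38, adjusted p = 0.00462) and Ern1 (adjusted p = 0.0499) were then added as lower. Between sites 1 was called and 0 without the filter, with median-of-ratios scaling, without trend and robust settings, with the unclear lymphoma as hv or as co, without a line term, in separated names only, with name style as a term, in cr only, and, chosen after seeing the data, without peripheral node hv T15 or mesenteric node cr T35.

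The share of higher calls among all genes moved from 43.3% to 55.5% for LPS against resting samples without libraries over 1% Gm10800, from 45.4% to 31.9% for lymphoma against resting samples when TPM were rescaled without Gm20594, Gm10800 and haemoglobin genes, and from 38.1% to 21.5% for lymphoma against LPS without libraries over 1% Gm10800. The rescaling moved the median of all genes with LPS from -0.16 to -0.30. Of the 32 members, 0 were called between lines under the alternatives run. The lowest member value was 1.13 TPM (Ern1), above the floor of 0.102 to 0.257 TPM at 1000 bases. Members with Xbp1 numbered 10, 7 without the 2 farthest samples and, chosen after seeing the data, 11 without lung hv T7.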

Other observations

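Every pair of members was also correlated across the 19 lymphomas, a family added after seeing the data. Pairs of other genes were not correlated, so no share of all genes stands beside these counts. The 496 pairs of members had a median r of 0.22, and 72.4% were positive. Of these pairs, 50 passed in permutation tests of both r (Pearson) and rho (Spearman), adjusted over 496, and all 50 were positive. The closest, chosen after their values were seen, were Dnajc3 with Manf (r = 0.89, rho = 0.86), Pdia4 with Creld2 (r = 0.89, rho = 0.86) and Pdia3 with Calr (r = 0.84, rho = 0.82), with adjusted permutation p of 0.0012 and 0.002 for each of the 3. Without the 2 samples farthest from the median of the first gene, r was 0.88, 0.85 and 0.82. Pdia4 and Creld2 were high together in lung co T34 (352 and 139 TPM), lung hv T39 (428 and 121 TPM) and peripheral node hv T15 (404 and 83.1 TPM), while Manf in these lymphomas was 151, 73.5 and 88.8 TPM. The interaction of site with line (cr against hv) called 0 of 12480 genes with limma, and 3 members, Hspa5, Pdia4 and Derl1, had an unadjusted p under 0.05.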
